A study of Mus musculus with 19 samples.

Results

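The eukaryotic initiation factors (eIFs) and their direct regulators were examined in locus coeruleus RNA of CnB1 knockout and control mice, with and without sleep deprivation. They were taken as every symbol of the count table that starts with Eif and a digit from 1 to 6, which gave 51 genes of 14443. The locus coeruleus is a small nucleus of the brainstem with noradrenergic neurons that keep the brain awake. CnB1, encoded by Ppp3r1, is the subunit that calcineurin, a phosphatase switched on by calcium, needs for its activity. CnB1KO_SD6 (n = 5) and CnB1KO_S6 (n = 5) were ABC-CnB1KO mice, and WT_SD6 (n = 5) and WT_S6 (n = 4) were ABC-Ctrl mice, called WT here as in the labels. SD6 mice had been kept awake for 6 h, and S6 mice had slept normally. All brains were collected 4 weeks after AAV-hSyn-Cre, a virus whose synapsin promoter drives Cre in neurons, and the protocol names this injection for both genotypes alike. The synapsin promoter is not limited to noradrenergic neurons, the dissected tissue also holds glia and vessels, and no source used here gives age, sex or litter. Each library counts as 1 biological replicate per the labels' protocols.

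Initiation brings a small ribosomal subunit with the initiator tRNA to the cap of an mRNA. The cap is held by eIF4E, which joins the scaffold eIF4G and the helicase eIF4A, while 4E binding proteins compete with eIF4G for eIF4E and are released when the kinase mTORC1 phosphorylates them. The tRNA is carried by eIF2, a GTP-binding trimer that is recharged by eIF2B, and stress kinases that phosphorylate eIF2 block this recharging and so lower general protein synthesis. Sleep is known as a state in which brain protein synthesis is favoured, and prolonged wakefulness has been tied to phosphorylation of eIF2 in rodent brain. The values here are RNA levels and hold no information on phosphorylation or on protein.

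Of the 51 genes, 4 (7.84%) passed the test for deprivation averaged over genotypes, beside 678 of all 14443 genes. Some of these 4 calls were lost when single libraries were left out, as given below. The 250 bases before their RefSeq start (build GRCm38.p6) are shown because these genes passed. The gene Eif4ebp2 has this stretch at chr10:61452670-61452919 on the minus strand, Eif4e2 at chr1:87213661-87213910 on the plus strand, Eif3b at chr5:140419055-140419304 on the plus strand and Eif2ak2 at chr17:78882573-78882822 on the minus strand. All are written 5′ to 3′ on the strand of the gene, and capitals mark a match to 1 of 8 motifs searched on both strands.
Eif4ebp2: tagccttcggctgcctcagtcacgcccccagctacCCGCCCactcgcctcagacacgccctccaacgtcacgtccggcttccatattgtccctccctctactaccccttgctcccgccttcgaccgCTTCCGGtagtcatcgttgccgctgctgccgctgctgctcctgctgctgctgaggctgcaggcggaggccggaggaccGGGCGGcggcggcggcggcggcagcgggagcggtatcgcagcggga
Eif4e2: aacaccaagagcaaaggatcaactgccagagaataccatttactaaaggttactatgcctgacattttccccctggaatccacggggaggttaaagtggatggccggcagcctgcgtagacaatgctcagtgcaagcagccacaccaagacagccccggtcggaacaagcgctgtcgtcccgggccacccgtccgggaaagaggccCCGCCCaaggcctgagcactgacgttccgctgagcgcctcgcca
Eif3b: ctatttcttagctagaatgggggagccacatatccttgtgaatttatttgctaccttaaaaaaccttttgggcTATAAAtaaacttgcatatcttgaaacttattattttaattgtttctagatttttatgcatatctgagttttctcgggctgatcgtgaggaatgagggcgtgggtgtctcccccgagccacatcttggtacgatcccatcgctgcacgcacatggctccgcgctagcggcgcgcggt
Eif2ak2: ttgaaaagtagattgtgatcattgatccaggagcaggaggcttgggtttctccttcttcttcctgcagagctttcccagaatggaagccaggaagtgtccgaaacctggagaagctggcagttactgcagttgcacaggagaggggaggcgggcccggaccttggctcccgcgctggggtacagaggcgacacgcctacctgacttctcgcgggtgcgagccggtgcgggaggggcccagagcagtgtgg

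The capitals are GC boxes (GGGCGG) in Eif4ebp2 and Eif4e2, 1 ETS-type match (CCGGAAG) in Eif4ebp2 and 1 TATA match (TATAAA) in Eif3b. The GC boxes of Eif4ebp2 begin 215 and 46 bases before the start, its ETS-type match 124 bases before, the GC box of Eif4e2 44 bases before and the TATA match of Eif3b 177 bases before. None of the 4 stretches holds an E-box (CACGTG), a CRE (TGACGTCA), an ISRE-type (GAAA, any 2 bases, GAAA), NRF1-type (GCGC, any base, TGCGC) or GRE-type (ACANNNTGT) match, and Eif2ak2 has no match at all. Among 32851 promoters of this length a GC box stood in 32.7%, an ETS-type match in 6.91% and a TATA match in 12.4%. The other motifs stood in 6.02% (E-box), 1.55% (CRE), 2.98% (ISRE-type), 3.74% (NRF1-type) and 5.84% (GRE-type) of them. Of the 43 eIF genes with a sequence, 31 had a GC box, 10 an ETS-type match and 4 a TATA match. An E-box stood in 7 of them, an NRF1-type match in 4, an ISRE-type in 2, a GRE-type in 1 and a CRE in 0. The 32851 promoters outnumber the 14443 genes of the count table and are not a matched set. No motif was shared by all of the 3 genes that rose. A match here is a run of letters, not a shown binding site.

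Total counts per library were 5110285 to 6966490 in CnB1KO_SD6, 3887298 to 7128244 in CnB1KO_S6, 5606129 to 7903253 in WT_SD6 and 6260061 to 7002015 in WT_S6. The count table numbers the libraries from 1 to 20 without a 5, and these numbers name single libraries below. Library 13 of CnB1KO_S6 was the shallowest, with 3887298 counts, and it had the highest CPM (counts scaled to library size by TMM) of all 19 libraries for 23 of the 51 eIF genes. Its eIF genes lay a median 0.11 above their mean on the log2 scale, and the other 18 libraries lay between -0.05 and 0.06. Ppp3r1, the targeted gene, averaged 129 ± 13.2 CPM in CnB1KO_S6 and 161 ± 4.08 CPM in WT_S6 (SD, n = 5 and 4), and 133 ± 6.73 CPM in CnB1KO_SD6 and 152 ± 10.9 CPM in WT_SD6 (SD, n = 5 each). Averaged over sleep states it was 1.2-fold lower in CnB1KO (adjusted p = 0.00758, edgeR), so its RNA was lowered and not absent in this tissue. Within a sleep state it did not pass, with log2 changes of -0.32 after S6 and -0.2 after SD6 (adjusted p = 0.104 and 0.177, edgeR). Library 13 had 152 CPM of Ppp3r1, beside 120 to 127 CPM in the other CnB1KO_S6 libraries and 155 to 164 CPM in WT_S6. All 8 noradrenergic markers were measured, and their summed level ran from 547 to 1460 CPM among the libraries, against 215 to 1650 CPM for 8 cerebellar markers.

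All 51 genes passed the filter on low counts, with 61 to 2855 counts in a library. On the per-length scale of FPKM (fragments per kilobase of transcript, scaled to library size) the mean level over 19 libraries ran from 5.01 for Eif2ak2, the double-stranded RNA kinase PKR, to 115 for Eif4a2, an eIF4A helicase, with a median of 31.3 over the 51 genes. The helicase group held the highest level, with Eif4a1 at 66.3 FPKM and Eif4a3, an exon junction protein of the same family, lowest at 28.9 FPKM. Among the eIF1 and eIF1A genes of start codon scanning Eif1 was highest at 82.1 FPKM and Eif1a lowest at 19.7 FPKM. Eif1ad, at 11.2 FPKM, was grouped with them by its eIF1A-like domain and is a nuclear protein tied to maturation of the small ribosomal subunit, not a scanning factor. The eIF4G scaffolds stood within a narrow range, from 60.7 FPKM for Eif4g1 to 47.7 FPKM for Eif4g3.

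Of the 13 genes of eIF3, the large complex that binds the small ribosomal subunit, Eif3k was highest at 56.5 FPKM and Eif3j1 lowest at 14.4 FPKM. Within the eIF2 trimer Eif2s3x, the X-linked gamma subunit, had 36.1 FPKM and Eif2s1, the alpha subunit that the stress kinases phosphorylate, 12.5 FPKM. For eIF2B the range was 23.8 FPKM for Eif2b5, its catalytic subunit, to 11.6 FPKM for Eif2b3.

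Among the 4 eIF2 kinases, Eif2ak1 (HRI, the haem-regulated kinase) had 23.8 FPKM, Eif2ak4 (GCN2, which senses uncharged tRNA) 11.9, Eif2ak3 (PERK, of the endoplasmic reticulum) 11.8 and Eif2ak2 (PKR) 5.01. Eif2a and Eif2d, which can carry tRNA to the ribosome without eIF2, had 21.6 and 19.6 FPKM. In the last group Eif5a, known for helping ribosomes through difficult stretches, had 69 FPKM and Eif5b, which joins the ribosomal subunits, 16 FPKM, with Eif5, which makes eIF2 hydrolyse its GTP, at 63.7 FPKM and Eif6, which keeps the large subunit apart, at 28.1 FPKM.

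At the cap, Eif4e2 (the 4EHP protein, which binds caps but not eIF4G) had 27.5 FPKM, Eif4e 23 and Eif4e3 8.2. Eif4e had 28.5, 30.2, 31.9 and 31.6 FPKM in libraries 3, 11, 15 and 16, and 19.7 to 22.4 FPKM in the others. Its CPM in those libraries was 91.7, 95.4, 93.4 and 94.8, beside 93 to 105 in the others, so the counts did not show this step. The ratio of Eif4e to Eif4e2 in FPKM was 0.84 ± 0.153 (SD, n = 19), and this ratio and the mean of 23 FPKM mix both levels. The binding partners Eif4enif1 (4E-T) and Eif4ebp2 (4E-BP2, the main 4E binding protein of the brain) had 21.1 and 20.8 FPKM. The other 4E binding proteins, Eif4ebp1 and Eif4ebp3, were in the FPKM tables alone, at 1.27 and 1.28 FPKM, so Eif4ebp2 exceeded Eif4ebp1 by 11.1 to 53.8 times in the 19 libraries.

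**Figure D1:**
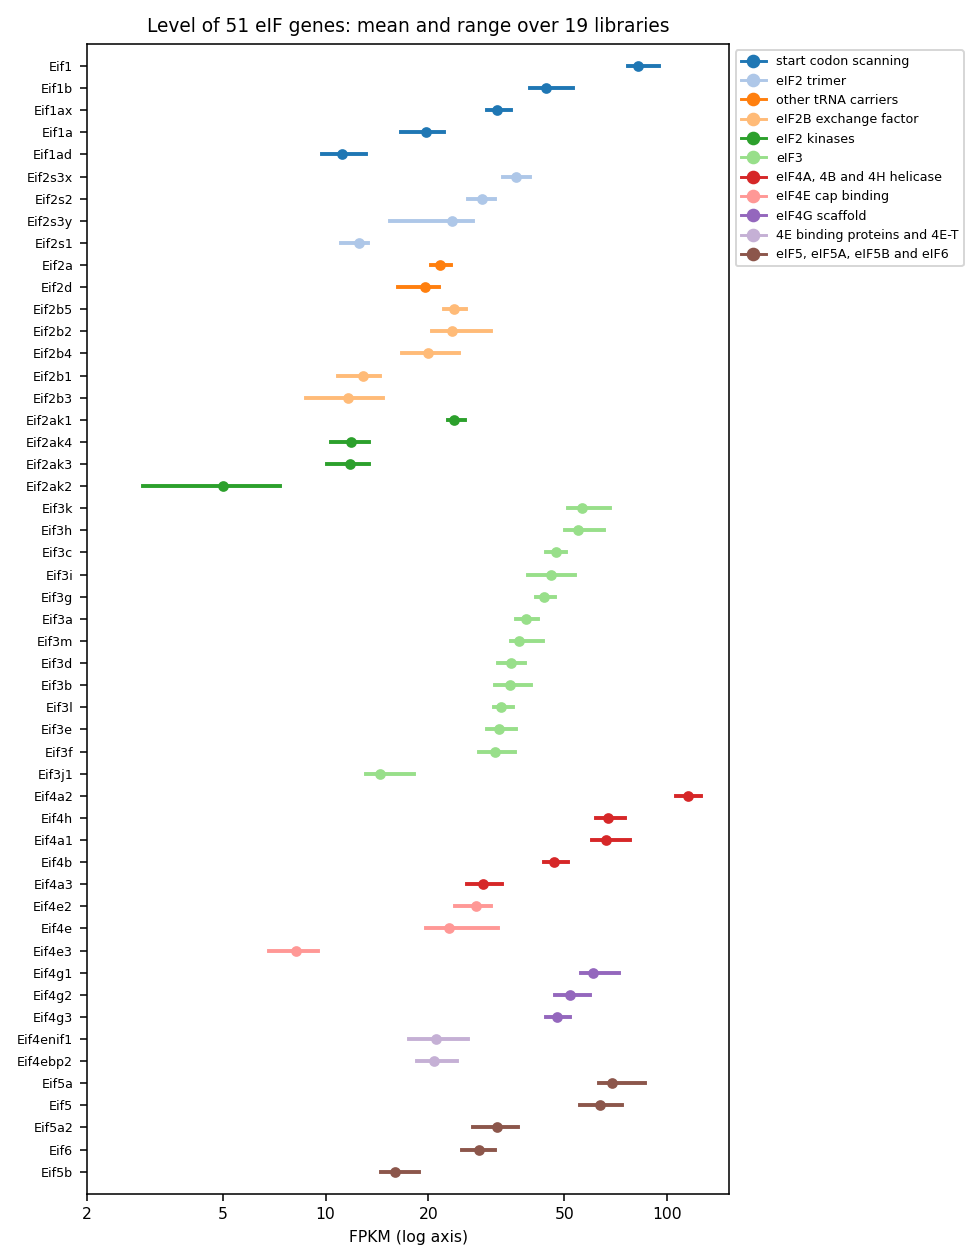
Mean level (point) and range over 19 libraries (line) of the 51 eIF genes in FPKM on a log axis, with 1 colour per role and genes of a role in order of level. Eif4a2 stands highest at 115 FPKM and Eif2ak2 lowest at 5.01 FPKM with the widest relative range.

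Most of these levels were nearly constant. The coefficient of variation of CPM over all 19 libraries had a median of 6.09% and ran from 3.26% for Eif3l, an eIF3 subunit, to 20.7% for Eif2ak2. After Eif2ak2 the most variable were Eif2s3y, the Y-linked gamma subunit of eIF2, at 14.8% and Eif2b3 at 10.7%. The least variable after Eif3l were Eif2ak1 at 3.35% and Eif4e at 3.56%. Summed over the 51 genes, the eIF level was 5047 ± 175 CPM in WT_SD6 and 5026 ± 40.2 CPM in WT_S6 (SD, n = 5 and 4), and 5128 ± 114 CPM in CnB1KO_SD6 and 5122 ± 319 CPM in CnB1KO_S6 (SD, n = 5 each). The groups overlapped in this sum.

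Depth moved with some of the levels. Counts of 5 genes increased by 0.7 or less on the log2 scale per doubling of the library total, with slopes of 0.59 for Eif5a, 0.62 for Eif4a1, 0.64 for Eif4a2 and 0.65 for both Eif3h and Eif4g2, so that their CPM ran high in shallow libraries. For Eif4ebp2, Eif4e2 and Eif3b the slopes were 1.15, 1.09 and 1.09, and for Eif2ak2 1.54. The part of depth in the results below was not tested beyond the fit with the library total as covariate.

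**Figure D2:**
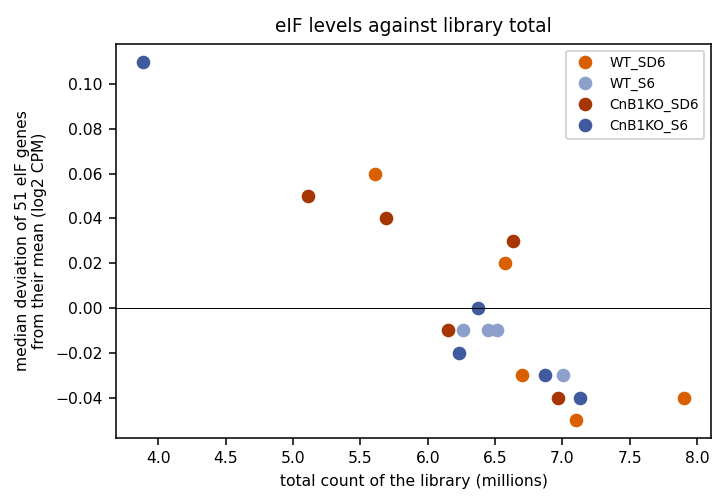
Median deviation of the 51 eIF genes from their own mean over 19 libraries (log2 CPM, vertical) against the total count of the library (horizontal), 1 point per library, coloured by group. The shallowest library, CnB1KO_S6 library 13, lies highest at 0.11, and the deepest, WT_SD6 library 10, lies at -0.04.

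Averaged over genotypes, sleep deprivation moved 4 of the 51 genes. Transcripts of Eif4ebp2 (4E-BP2), Eif4e2 (4EHP) and Eif3b, a core scaffold subunit of eIF3, rose, and those of Eif2ak2 (PKR) fell. The rises were small, 1.13-fold at most, and the fall was 1.32-fold. These 4 are 7.84% of the genes, beside 4.69% of all 14443 genes that passed in this comparison (2.57% higher and 2.13% lower), so the share of eIF genes was not far from that of all genes. At an unadjusted p under 0.05 the share was 6 of 51 genes (11.8%), beside 17.2% of all genes. The median size of the log2 change, whatever its sign, was 0.03 over the 51 genes and 0.06 over all genes, and 50 of the 51 estimates lay within 0.25 of zero. The 51 genes had at least 61 counts in every library, while all genes include some with a mean count under 50. The part of count level in this contrast was not tested.

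Eif4ebp2 lies on the minus strand at chr10:61428491-61452661 (GRCm38). It had 151, 157, 162, 139 and 135 CPM in the WT_SD6 libraries, against 128, 128, 125 and 130 CPM in the WT_S6 libraries. All 5 deprived WT libraries lay above all 4 WT libraries that slept. It had 148, 151, 135, 136 and 145 CPM in CnB1KO_SD6, against 129, 133, 129, 136 and 130 CPM in CnB1KO_S6. There the groups met at their edges, with the highest library of CnB1KO_S6 within the range of CnB1KO_SD6. In WT the log2 change was 0.22 (SE 0.05, 1.16-fold), and it passed (adjusted p = 0.0388, edgeR quasi-likelihood test with Benjamini-Hochberg adjustment). In CnB1KO it was 0.12 (SE 0.05, 1.09-fold) and did not pass (adjusted p = 0.366, edgeR). Averaged over genotypes it was 0.17 with a 95% interval from 0.10 to 0.24 (adjusted p = 0.00675, edgeR). The difference between the genotypes was not shown, with an interaction of -0.10 and an interval from -0.24 to 0.05 (adjusted p = 1, edgeR).

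The WT call was narrow. It was lost when any of 11 single libraries was left out (each WT_S6 library, WT_SD6 libraries 6, 7 and 8, and CnB1KO_S6 libraries 11, 12, 13 and 15), with an adjusted p of at most 0.115 and a log2 change between 0.19 and 0.23. The averaged change passed without each of the 19 libraries in turn, at an adjusted p of at most 0.0197. The sum of Eif4ebp2 and Eif4enif1 was 227 ± 14.9 CPM in WT_SD6 and 201.6 ± 3 CPM in WT_S6 (SD, n = 5 and 4), and 220.1 ± 5.98 CPM in CnB1KO_SD6 and 205.7 ± 5.62 CPM in CnB1KO_S6 (SD, n = 5 each). Eif4enif1, whose protein takes eIF4E into the nucleus and to sites of mRNA storage, had an averaged log2 change of 0.07 (SE 0.04) that did not pass (adjusted p = 0.329, edgeR).

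Eif4e2 lies on the plus strand at chr1:87213914-87240488. It had 91.7, 89.6, 88.5, 84.9 and 94.2 CPM in WT_SD6, against 82.7, 83.9, 84.3 and 83.0 CPM in WT_S6. In CnB1KO_SD6 it had 90.4, 92.4, 94.4, 92.5 and 98.2 CPM, against 88.0, 79.5, 89.0, 81.9 and 90.5 CPM in CnB1KO_S6. The WT groups did not overlap, and in CnB1KO a single S6 library reached the lowest SD6 library. Averaged over genotypes the log2 change was 0.12 (SE 0.03, 1.08-fold) and passed (adjusted p = 0.0287, edgeR), whereas 0.11 in WT and 0.13 in CnB1KO did not pass on their own (adjusted p = 0.313 and 0.224, edgeR). The averaged call was lost, at an adjusted p of at most 0.0583, without WT_S6 library 1, 2 or 4, WT_SD6 library 7, CnB1KO_S6 library 12 or 14, or CnB1KO_SD6 library 18. Eif4e, the cap-binding protein that builds the initiation complex, had 99.7 ± 3.19 CPM in WT_SD6 and 96.9 ± 3.64 CPM in WT_S6 (SD, n = 5 and 4) and an averaged log2 change of 0.01 with an interval from -0.04 to 0.07. Eif4e3 had an averaged log2 change of 0.02, with an interval from -0.11 to 0.15.

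Eif3b lies on the plus strand at chr5:140419328-140443360. It had 119, 117, 113, 114 and 121 CPM in WT_SD6, against 111, 110, 105 and 105 CPM in WT_S6. It had 117, 124, 132, 125 and 121 CPM in CnB1KO_SD6, against 108, 114, 120, 115 and 121 CPM in CnB1KO_S6. The WT groups were just apart, and the CnB1KO groups overlapped. It rose by 0.11 (log2, averaged over genotypes, SE 0.03, 1.08-fold, adjusted p = 0.0399, edgeR). This call was kept in 7 of the 19 fits with 1 library left out, and was lost without WT_S6 library 2, 3 or 4, WT_SD6 library 6, 7 or 10, CnB1KO_S6 library 11, 12 or 14, or CnB1KO_SD6 library 17, 18 or 19 (adjusted p of at most 0.0866). The other 12 eIF3 genes did not pass, with averaged log2 changes from -0.07 for Eif3e to 0.04 for Eif3m, and Eif3a, the largest subunit, at 0.00 with an interval from -0.07 to 0.07.

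Eif2ak2 lies on the minus strand at chr17:78852564-78882573. It had 19.1, 23.7, 17.4, 13.6 and 22.0 CPM in WT_SD6, against 24.6, 23.5, 29.8 and 22.4 CPM in WT_S6. It had 18.5, 21.5, 23.7, 19.4 and 18.1 CPM in CnB1KO_SD6, against 23.6, 29.5, 25.4, 24.1 and 33.4 CPM in CnB1KO_S6. Most deprived libraries were low in both genotypes, and both pairs of groups overlapped. These are 75 to 214 reads a library, the fewest behind any of the 4 genes. Over both genotypes the log2 change was -0.40 with an interval from -0.60 to -0.20 (adjusted p = 0.0234, edgeR), and without WT_S6 library 3 it was -0.35 and did not pass (adjusted p = 0.0568, edgeR). Within WT it was -0.38 and within CnB1KO -0.42, neither of which passed (adjusted p = 0.259 and 0.223, edgeR). An antisense gene, Gm26637, and n-R5s29 share 4.3% of its exon length, and without strand their reads cannot be told apart from its own.

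**Figure D3:**
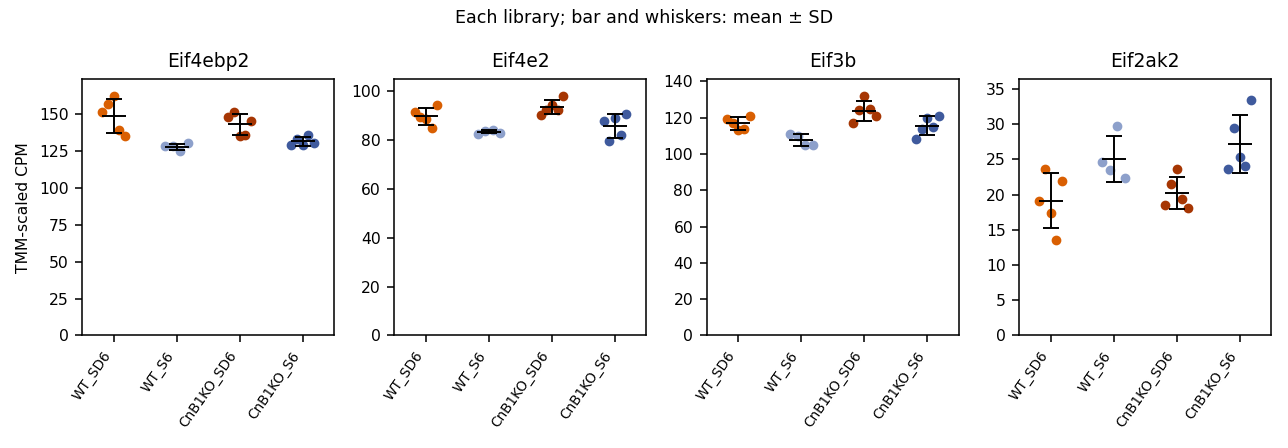
Level in CPM of the 4 genes that passed for deprivation, 1 point per library, with the mean (bar) and SD (whiskers) of each group, deprived beside slept within a genotype. Eif4ebp2, Eif4e2 and Eif3b have higher group means after SD6 in both genotypes, and Eif2ak2 lower ones.

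The other 3 eIF2 kinases stayed near their level after deprivation. Eif2ak1 had 94.2 ± 4.07 CPM in WT_SD6 and 92.5 ± 1.75 CPM in WT_S6 (SD, n = 5 and 4), and its averaged log2 change of 0.03 had an interval from -0.02 to 0.09. Eif2ak3 had an averaged log2 change of 0.04 (interval -0.07 to 0.15) and Eif2ak4 one of -0.04 (interval -0.14 to 0.05). For their substrate, Eif2s1, the change was 0.05 (interval -0.04 to 0.13). None of these passed, and the intervals leave room for changes of up to 0.15 on the log2 scale.

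Estimates for the 5 eIF2B subunits differed in sign, but none passed in the main fit and the subunits were not tested against each other. Eif2b3 had 22.3, 21.2, 21, 22.0 and 25.6 CPM in WT_SD6, against 27.9, 26.2, 23.9 and 27.3 CPM in WT_S6, and 18.5, 21.9, 24.2, 23.1 and 22.3 CPM in CnB1KO_SD6, against 23.4, 21.9, 27.0, 25.0 and 26.7 CPM in CnB1KO_S6. A single WT_SD6 library kept the WT groups from standing apart. Its averaged log2 change of -0.20 (SE 0.06) did not pass (adjusted p = 0.0635, edgeR). It did pass as lower with the cerebellar or the noradrenergic score as covariate, and without WT_SD6 library 10, CnB1KO_S6 library 12 or CnB1KO_SD6 library 18. Eif2b2 pointed the other way with 0.13 (SE 0.04, adjusted p = 0.0843, edgeR). Eif2b4 had 0.10 (SE 0.05), Eif2b5 0.04 (SE 0.03) and Eif2b1 0.03 (SE 0.06), and none of these passed.

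The abundant core of the cap complex held still. Averaged log2 changes were 0.01 for Eif4g1 (interval -0.08 to 0.10), -0.03 for Eif4a2 (-0.14 to 0.07) and -0.04 for Eif4a1 (-0.15 to 0.07). All 5 helicase genes had estimates of 0.00 or below, down to -0.05, and none passed. Estimates for Eif5, Eif5a and Eif6 were -0.02, -0.02 and -0.03, and for Eif1 0.06, each with an interval that covers 0.

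**Figure D4:**
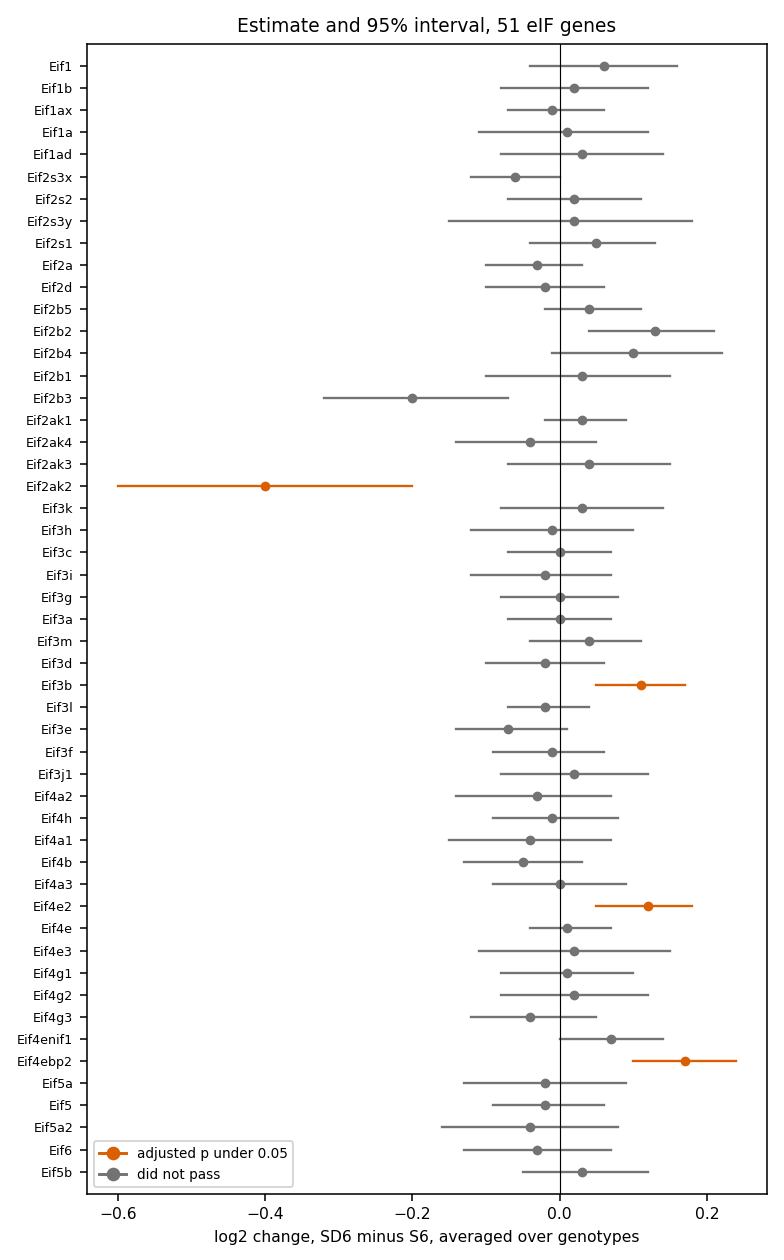
Log2 change of the 51 eIF genes with deprivation, averaged over genotypes (point, SD6 minus S6), with 95% intervals (line), genes grouped by role. Orange marks the 4 that passed: Eif4ebp2, Eif4e2 and Eif3b lie above 0, and Eif2ak2 at -0.40 lies farthest from it.

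Taken within a genotype, deprivation moved 1 of 51 genes in WT, Eif4ebp2 (1.96%, beside 1.14% of all genes, 0.775% higher and 0.367% lower), and 6 at an unadjusted p under 0.05 (beside 11.6% of all genes). Besides Eif4ebp2, Eif4e2 and Eif3b had no overlap between the WT groups, so 3 of 51 genes stood apart, all with SD6 above S6, where 5.21% of all genes stood apart, 3.11% above and 2.10% below. In CnB1KO none of the 51 genes passed by edgeR (0.692% of all genes did, 0.464% higher and 0.228% lower), DESeq2 or limma voom, and 5 had an unadjusted p under 0.05 (9.69% of all genes). No eIF gene stood apart between CnB1KO_SD6 and CnB1KO_S6, where 2.66% of all genes did, 1.38% above and 1.28% below. The difference between the genotypes in their response was itself tested, and 0 of 51 genes passed by edgeR, DESeq2 or limma voom, none with an unadjusted p under 0.05 (0 and 1.99% of all genes). Its smallest p-values were those of Eif3l at 0.10 (SE 0.05), Eif4ebp2 at -0.10 (SE 0.07) and Eif3e at 0.09 (SE 0.07) on the log2 scale.

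Some glial markers moved with deprivation too, averaged over genotypes, where 678 of all 14443 genes passed. Of 12 oligodendrocyte markers, all measured, 3 fell in the averaged comparison, Opalin by 2.11-fold, Aspa by 1.38-fold and Mog by 1.17-fold (adjusted p = 4.7e-06, 0.00815 and 0.0421, edgeR). The summed level of the 12 ran from 1950 to 2200 CPM in WT_SD6 and from 2110 to 2390 CPM in WT_S6, and from 2120 to 2600 CPM in CnB1KO_SD6 and from 2070 to 3200 CPM in CnB1KO_S6, with no marker at 0. The microglial receptor Cx3cr1 fell 1.19-fold as the 1 of 8 microglial markers that passed (adjusted p = 0.0266, edgeR). The summed level of the 8 ran from 220 to 282 CPM in WT_SD6 and from 273 to 307 CPM in WT_S6, and from 258 to 314 CPM in CnB1KO_SD6 and from 275 to 298 CPM in CnB1KO_S6. Of 9 astrocyte markers Gjb6 rose 1.34-fold (adjusted p = 6.0e-05, edgeR). The other markers of these glial lists did not pass. Of 6 neuronal and 8 noradrenergic markers none passed. With the oligodendrocyte score as covariate the averaged change was 0.16 for Eif4ebp2 and -0.31 for Eif2ak2 on the log2 scale, and neither passed (adjusted p = 0.0644 and 0.215, edgeR). Eif4e2 and Eif3b still passed in that fit, in which 367 of all genes passed, against 678 in the main fit. The score itself moved with deprivation in WT, with a mean of 6.95 in WT_SD6 and 7.24 in WT_S6. In such tissue, fewer cells of a type and less RNA per cell cannot be told apart.

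Between genotypes none of the 51 genes passed, averaged over sleep states (3.09% of all genes did, 1.88% higher and 1.21% lower), and 7 had an unadjusted p under 0.05 (beside 23.1% of all genes). DESeq2 called 1 of them, Eif2s3y, and limma voom none. The genes nearest to passing were Eif1b, a close copy of the scanning factor Eif1, and Eif2b2, the beta subunit of eIF2B, with higher levels in CnB1KO, and Eif2s3y with lower ones. Their folds were 1.13, 1.11 and 1.21.

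Eif1b lies on the plus strand at chr9:120492232-120495330. It had 35.5, 37.8, 46.9, 34.7 and 37.4 CPM in CnB1KO_S6, against 32.6, 32.7, 34.5 and 33.8 CPM in WT_S6. It had 37.6, 37.0, 36.0, 40.5 and 40.6 CPM in CnB1KO_SD6, against 34.1, 33.5, 34.9, 35.1 and 33.6 CPM in WT_SD6. All CnB1KO libraries lay above all WT libraries of the same sleep state. It was the 1 of 51 genes that stood apart after S6, where 4.32% of all genes did (2.55% above and 1.77% below), and the 1 of 51 after SD6, where 2.05% did (1.11% above and 0.942% below). Averaged over sleep states its log2 change was 0.18 (SE 0.05) and missed the threshold (adjusted p = 0.0507, edgeR). Without the shallow CnB1KO_S6 library 13, the source of the 46.9 CPM, it was 0.14 (adjusted p = 0.0799, edgeR), and in the fit that also holds library depth 0.12 (adjusted p = 0.096, edgeR). It passed without WT_SD6 library 8, CnB1KO_S6 library 11 or 14, or CnB1KO_SD6 library 16, at an adjusted p from 0.0304 to 0.0478. Counts of Eif1b increased by 0.72 per doubling of the library total. D830035M03Rik, on the opposite strand, shares 12.7% of its exon length, and reads could also be split with Eif1. Eif1 itself had an averaged log2 change of 0.05 (interval -0.06 to 0.15).

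Eif2b2 lies on the plus strand at chr12:85219481-85226628. It had 39.0, 37.6, 40.1, 38.9 and 43.0 CPM in CnB1KO_S6, against 35.8, 34.9, 37.9 and 38.7 CPM in WT_S6. It had 42.3, 44.3, 45.6, 44.2 and 46.8 CPM in CnB1KO_SD6, against 43.1, 35.5, 37.6, 38.7 and 40.8 CPM in WT_SD6. After SD6 a single WT library, library 6, reached into the range of CnB1KO. Its difference averaged over sleep states was 0.15 (log2, SE 0.04, adjusted p = 0.053, edgeR), and it passed without WT_SD6 library 6 or 10, CnB1KO_S6 library 14 or CnB1KO_SD6 library 16, at an adjusted p from 0.034 to 0.0479. The CnB1KO_SD6 group had the highest mean of the 4, 44.6 ± 1.67 CPM (SD, n = 5), against 39.2 ± 2.94 CPM in WT_SD6 (SD, n = 5).

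Eif2s3y lies on the plus strand at chrY:1010543-1028847. It had 37.3, 56.2, 47.5, 56.8 and 59.6 CPM in CnB1KO_S6, against 58.0, 62.6, 66.4 and 64.2 CPM in WT_S6. It had 55.1, 51.9, 60.1, 49.7 and 43.8 CPM in CnB1KO_SD6, against 52.4, 65.1, 67.8, 66.7 and 64.6 CPM in WT_SD6. Every library had reads of this Y-linked gene, and in both sleep states the groups overlapped through 1 WT library. Averaged over sleep states it differed by -0.28 (log2, SE 0.08, adjusted p = 0.0548, edgeR, and 0.0224 by DESeq2). By edgeR it passed without WT_SD6 library 6, CnB1KO_S6 library 14 or CnB1KO_SD6 library 16, at an adjusted p from 0.0385 to 0.0417. Its X-linked copy Eif2s3x had -0.04 (interval -0.10 to 0.02), and the ratio of Eif2s3x to Eif2s3y in FPKM was 1.69 ± 0.362 in CnB1KO_S6 and 1.47 ± 0.0739 in WT_S6 (SD, n = 5 and 4), and 1.63 ± 0.115 in CnB1KO_SD6 and 1.45 ± 0.177 in WT_SD6 (SD, n = 5 each). Reads of these near-identical copies may be shared between them.

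**Figure D5:**
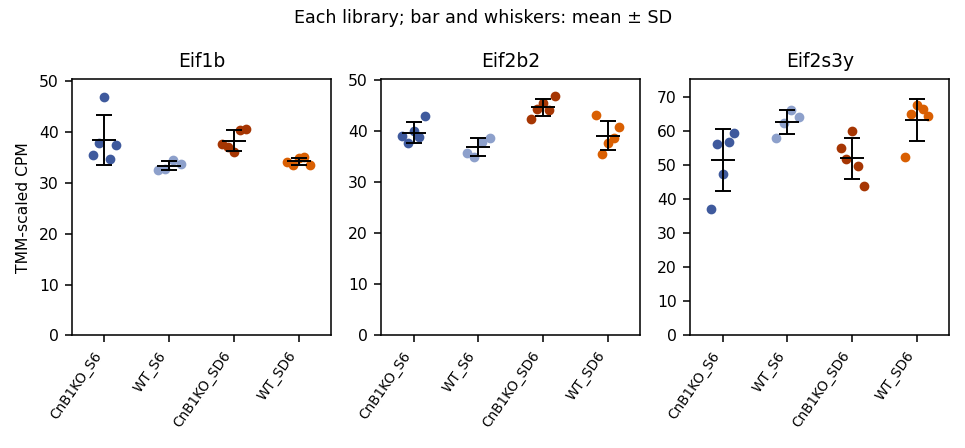
Level in CPM of Eif1b, Eif2b2 and Eif2s3y, 1 point per library, with the mean (bar) and SD (whiskers) of each group, CnB1KO beside WT within a sleep state. The Eif1b libraries of CnB1KO lie above those of WT in both states, with library 13 at 46.9 CPM, and no gene shown passed the test.

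Taken within a sleep state, CnB1KO against WT gave 0 of 51 genes by edgeR, DESeq2 and limma voom both after S6 (0.0485% of all genes passed, 0.0208% higher and 0.0277% lower) and after SD6 (0.132%, 0.0762% higher and 0.0554% lower), and 4 of 51 at an unadjusted p under 0.05 in each (beside 10.1% and 15.2% of all genes). Besides the 3 genes above, Eif3e had the third smallest p after S6, with a log2 change of -0.12 (SE 0.05, adjusted p = 0.433, edgeR), and Eif3b had 0.09 (SE 0.03, adjusted p = 0.0765, edgeR) averaged over sleep states. The kinases Eif2ak1, Eif2ak2, Eif2ak3 and Eif2ak4 had averaged estimates of 0.02, 0.10, 0.01 and 0.07, and Eif4ebp2, Eif4e and Eif4g1 of -0.01, -0.04 and 0.03, none of which passed. For Eif4ebp2 the interval ran from -0.08 to 0.06.

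Some vessel and glial markers differed between the genotypes averaged over sleep states, where 447 of all 14443 genes passed. Of 6 endothelial markers, all measured, 4 were higher in CnB1KO (Cldn5, Flt1, Pecam1 and Slco1a4, by 1.17-fold to 1.29-fold), with a summed level of 491 to 586 CPM in CnB1KO_S6 and 396 to 456 CPM in WT_S6, and of 458 to 602 CPM in CnB1KO_SD6 and 385 to 472 CPM in WT_SD6. Of the 12 oligodendrocyte markers 3 were higher (Ermn, Mag and Ugt8a), as were the microglial C1qa and C1qc, 2 of 8. The other markers of these lists did not pass. The part of these cells in the estimates for Eif1b, Eif2b2 and Eif2s3y was not tested beyond the fits with such scores as covariate. The averaged changes were 0.10, 0.12 and -0.23 with the oligodendrocyte score (adjusted p = 0.747, 0.628 and 0.628, edgeR). With the endothelial score they were 0.22, 0.16 and -0.39 (adjusted p = 0.398 for each, edgeR). None passed in these fits, in which 10 and 7 of all genes passed, against 447 in the main fit.

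Genes that act around the initiation factors moved in a few cases. A list of 36 genes held targets of ATF4, the factor made when eIF2 is phosphorylated, and of the wider stress response to this phosphorylation. Not every listed gene is a target of ATF4. Of the 36 genes 31 were measured, and 4 rose with deprivation averaged over genotypes while 27 did not pass. In this comparison 4.69% of all genes passed and 2.57% were higher. The list, like the others here, was chosen with earlier results of these data known. Ddit4 (REDD1, an inhibitor of mTORC1) had 48.2 ± 6.59 CPM in WT_SD6 and 33.9 ± 2.29 CPM in WT_S6 (SD, n = 5 and 4), and 48.6 ± 5.53 CPM in CnB1KO_SD6 and 37.2 ± 2.96 CPM in CnB1KO_S6 (SD, n = 5 each). It rose 1.36-fold averaged over genotypes and 1.42-fold in WT (adjusted p = 6.5e-04 and 0.0146, edgeR), and the WT call was lost without WT_S6 library 2 or 4 (adjusted p = 0.0649 and 0.0625, edgeR). Cth, which makes cysteine, rose 1.68-fold, Chac1, which degrades glutathione, 1.21-fold and Ppp1r15b, which directs a phosphatase to eIF2, 1.09-fold (adjusted p = 0.00725, 0.0363 and 0.0428, edgeR). The median log2 change of the 31 was 0.04, beside 0 over all genes. Ddit4 is also known to be raised by glucocorticoids and hypoxia. Sesn2, another inhibitor of mTORC1, was 1.23-fold lower in CnB1KO averaged over sleep states (adjusted p = 0.0349, edgeR) as the 1 of 31 that passed there, where 3.09% of all genes passed.

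Of 30 genes of mTORC1 and MNK signalling, all measured, 1 passed for deprivation averaged over genotypes, Castor1, where 4.69% of all genes passed, so the list did not exceed that share. Castor1, an arginine sensor that holds mTORC1 back, had 13.5 ± 2.62 CPM in WT_SD6 and 8.53 ± 0.72 CPM in WT_S6 (SD, n = 5 and 4), and 12.4 ± 1.79 CPM in CnB1KO_SD6 and 10.6 ± 0.902 CPM in CnB1KO_S6 (SD, n = 5 each). It rose 1.58-fold in WT and 1.35-fold averaged over genotypes (adjusted p = 0.0268 and 0.0141, edgeR). The WT call was lost without any 1 of the WT_S6 libraries or of WT_SD6 libraries 6, 9 and 10, at an adjusted p of at most 0.102. Lamtor5, a subunit of the lysosomal anchor of mTORC1, was 1.13-fold higher in CnB1KO averaged over sleep states (adjusted p = 0.0446, edgeR). It was the 1 of these 30 genes that passed there, where 447 of all 14443 genes passed. The Lamtor5 call was lost in most of the alternatives, as given below.

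Of 25 partners at the cap, the poly(A) tail and in scanning, 2 rose with deprivation averaged over genotypes, where 2.57% of all genes were higher. Ncbp3, a cap-binding protein of nuclear mRNA, had 72.6 ± 4.96 CPM in WT_SD6 and 60.9 ± 2.97 CPM in WT_S6 (SD, n = 5 and 4), and 79.1 ± 2.9 CPM in CnB1KO_SD6 and 65.2 ± 4.68 CPM in CnB1KO_S6 (SD, n = 5 each). It rose 1.19-fold in WT, 1.21-fold in CnB1KO and 1.2-fold averaged (adjusted p = 0.0361, 0.0203 and 5.2e-04, edgeR). The averaged call held without each of the 19 libraries in turn. In WT it was lost without WT_S6 library 2, 3 or 4, WT_SD6 library 6, 7, 8 or 10, CnB1KO_S6 library 15 or CnB1KO_SD6 library 18 (adjusted p of at most 0.124), and in CnB1KO without CnB1KO_S6 library 12 or 13 or CnB1KO_SD6 library 17 or 18 (adjusted p of at most 0.0921). Gigyf2, the partner through which 4EHP (Eif4e2) represses mRNAs, had 139 ± 4.25 CPM in WT_SD6 and 128 ± 2.38 CPM in WT_S6 (SD, n = 5 and 4), and 141 ± 3.47 CPM in CnB1KO_SD6 and 135 ± 4.84 CPM in CnB1KO_S6 (SD, n = 5 each), and rose 1.07-fold averaged over genotypes (adjusted p = 0.04, edgeR). The Gigyf2 call was lost in most of the alternatives, as given below. Larp4b, which binds poly(A) mRNA, was 1.08-fold lower in CnB1KO averaged over sleep states (adjusted p = 0.0326, edgeR). It was the 1 of these 25 partners that passed there, where 447 of all 14443 genes passed. None of 20 elongation and release factors passed in any of the 7 comparisons by edgeR, DESeq2 or limma voom, and 3 had an unadjusted p under 0.05 for deprivation averaged over genotypes, beside 17.2% of all genes.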

How the data were processed

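Poly(A) RNA of locus coeruleus was sequenced in 19 libraries without strand information. A table of whole-number counts over 14443 symbols was deposited by the authors. FPKM values were deposited separately for each of the 4 groups, so levels set across groups assume like processing. Per the submitters' processing notes, the tools were HTSeq 2.0.4, StringTie 2.2.1, SAMtools 1.6, Picard 2.18.29, Trim Galore 0.6.10 and FastQC 0.12.1, with GRCm38. No source used here gives the aligner, the handling of duplicates or the rule that left symbols out of the count table. Deposited TPM columns were not used.

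Counts were scaled by TMM (CPM) and tested in R 4.3.3 with the quasi-likelihood method of edgeR 4.0.16, 2-sided. A single model held the 4 groups and all 19 libraries, which leaves 15 degrees of freedom, with filterByExpr (all 14443 genes kept) and Benjamini-Hochberg adjustment over all genes. A gene passed at an adjusted p under 0.05. The 7 comparisons share libraries. Libraries of a group differed by 1.38 to 19.1 times counting noise (chi-square per degree of freedom, 36 pairs), so none were counted as 1. No single-library share is given, so no binomial interval is needed. The script was tested on simulated data.

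Members and lists were chosen with earlier results of these data known. Named were members that passed, the 3 smallest p per comparison, a fixed set of core factors, and the highest and lowest FPKM per role, with up to 4 passing genes per pathway list. Eif2b4, Eif3m, Eif3h, Eif4g2 and the markers were named after their values were seen. All 51 matched 1 gene of GENCODE M21, and 20 share exons with another gene, 14 of them on the opposite strand. Promoter sequences are from RefSeq (GRCm38.p6), matched for 43 members. Marker scores are mean log2 CPM. Alternatives were DESeq2 1.42.0, limma 3.58.1 (voom, and FPKM on log2(FPKM + 0.1) or + 1, over genes with a mean FPKM of at least 0.1), RLE factors, other filters, covariates, the compared libraries alone and each library left out.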

Additional observations from a re-analysis of the deposited data

Results flagged for a closer look

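Within groups, a single library's gap to its nearest neighbour against the group's range was large in 3 of 40 groups examined over 10 named genes, and chance gives about 1 in 20. Eif1b had 46.9 CPM in CnB1KO_S6 library 13, where the next highest library had 37.8 CPM, and this library is the shallowest of the 19. Eif2b3 had 25.6 CPM in WT_SD6 library 10, where the next highest had 22.3 CPM, and this library is the deepest. Without it Eif2b3 passed as lower for deprivation averaged over genotypes (edgeR). Eif2s3y had 52.4 CPM in WT_SD6 library 6, where the next lowest had 64.6 CPM. Without that library the averaged difference of Eif2s3y between CnB1KO and WT was -0.31 on the log2 scale and passed (adjusted p = 0.0385, edgeR).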

How the results depend on the processing

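Alternatives were run for 36 gene results (genes that passed or had the smallest p in a comparison) and for the 7 counts, and none of these 36 changed sign. The other named genes were not run under alternatives. For deprivation in WT the count of eIF genes was 1, and it was 0 with RLE factors, with a mean count of at least 50, with FPKM at either pseudocount, with the compared libraries alone and with the oligodendrocyte score as covariate, and 0 to 1 with a library left out. Over all 32 alternatives the log2 change of Eif4ebp2 ran from 0.19 to 0.25 and its adjusted p from 0.0125 to 0.2, and it passed in 15. For deprivation averaged over genotypes the count was 4, and it was 1 with FPKM at either pseudocount (Eif4ebp2), 2 with the oligodendrocyte score (Eif3b and Eif4e2), 5 with the cerebellar or the noradrenergic score (Eif2b3 added, as lower) and 2 to 4 with a library left out. It was 2 without WT_S6 library 2, 3 or 4, WT_SD6 library 7 or CnB1KO_S6 library 14. Of the 19 fits with a library left out, Eif2ak2 passed in 18, Eif4e2 in 12 and Eif3b in 7. For CnB1KO against WT averaged over sleep states the count was 0, and it was 1 with DESeq2 and 0 to 4 with a library left out, being 4 without CnB1KO_SD6 library 16 (Eif1b, Eif2b2, Eif2s3y and Eif3b), 3 without CnB1KO_S6 library 14, 2 without WT_SD6 library 6, and 1 without WT_SD6 library 8 or 10 or CnB1KO_S6 library 11. The cause of these changes was not tested. The counts of the other 4 comparisons stayed at 0 under every alternative. The endothelial covariate was chosen after seeing the data. Among pathway genes, Ddit4 and Ncbp3 passed for averaged deprivation in all 31 alternatives, Castor1 in 30, Chac1 in 19, Gigyf2 and Ppp1r15b in 12 each and Cth in 29 of 30. Within a genotype, Ncbp3 passed in 18 of 32 alternatives in WT, failing, besides the fits with a library left out, with FPKM, a mean count of at least 50, the compared libraries alone and the oligodendrocyte score, and in 25 of 32 in CnB1KO, failing with FPKM and the compared libraries alone. In WT Castor1 passed in 21 of 32 and Ddit4 in 27. Between genotypes, averaged, Larp4b passed in 20 of 31, Sesn2 in 15 and Lamtor5 in 9.

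No paired analysis was possible because the columns of the count table carry running numbers that match the replicate numbers of the labels in WT_S6 alone. Small changes are limited by depth and by group size: Eif2ak2 rests on 75 to 214 reads a library.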

Other observations

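Outside the count table, 34 further symbols of the family stood in the FPKM tables, of which 20 were listed at 0 in all 19 libraries and 5 had a mean of at least 1 FPKM. The pseudogene Eif4a-ps4 had 21.2 FPKM and Eif3j2, a copy of Eif3j1, 11.1 FPKM. Eif4ebp1 (4E-BP1) had 1.17, 1.9, 2.19, 1.17 and 1.85 FPKM in WT_SD6, against 1.44, 1.07, 0.689 and 1.23 FPKM in WT_S6. It had 0.858, 1.4, 1.87, 1.16 and 1.3 FPKM in CnB1KO_SD6, against 0.976, 1.01, 0.344, 1.28 and 1.22 FPKM in CnB1KO_S6. The averaged log2 change with deprivation was 0.51 on the log2(FPKM + 0.1) scale and did not pass over 25719 genes (adjusted p = 0.345, limma). Eif4ebp3 (4E-BP3) had 0.999 ± 0.548 FPKM in WT_SD6 and 1.57 ± 0.237 FPKM in WT_S6 (SD, n = 5 and 4), and 1.08 ± 0.527 FPKM in CnB1KO_SD6 and 1.53 ± 0.496 FPKM in CnB1KO_S6 (SD, n = 5 each). Its averaged log2 change of -0.63 did not pass (adjusted p = 0.301, limma). Both are near 1 FPKM, and the groups overlapped in each pair.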
